A study of Mus musculus with 6 samples.

Results

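The Wnt pathway genes of mouse back skin were described after injections of rIL-31 (recombinant interleukin 31, a T-cell cytokine linked to itch) or of saline. Members were chosen by symbol, after the Entrez gene numbers of the count table had been matched to mouse symbols. They were the genes named Wnt, Fzd, Sfrp, Dkk or Rspo with a digit, and 12 further genes, Wif1, Lrp5, Lrp6, Axin2, Lef1, Tcf7, Tcf7l1, Tcf7l2, Nkd1, Nkd2, Notum and Porcn. The rule took 54 of the 24061 genes in the table, and 48 of these were among the 16371 genes with enough counts to be tested. The 6 that were not tested were Dkk1, Wnt1, Wnt7a, Wnt8a, Wnt8b and Wnt9b, and Wnt1 had no count in any library. The rIL-31 group held 3 libraries of skin from C57BL/6 mice given 20 µg rIL-31 in 50 µl into the dermis every day for 14 days. The saline group held 3 libraries from C57BL/6 mice given 50 µl saline on the same schedule. The mice of both groups were females of 8 to 14 weeks, injected in the center of the shaved back, and the labels do not say whether each library came from a separate mouse. P-values therefore measure only the spread between these libraries.

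Wnt proteins are secreted lipid-modified ligands that bind Frizzled receptors, encoded by the Fzd genes, together with the co-receptors Lrp5 and Lrp6. In the canonical branch, this binding stops the destruction of β-catenin, which then acts on target genes with the transcription factors Lef1, Tcf7, Tcf7l1 and Tcf7l2. R-spondins (Rspo genes) raise the sensitivity of cells to Wnt, whereas the secreted proteins of the Sfrp and Dkk families, Wif1 and Notum are classed here as antagonists of Wnt. In skin, Wnt signals are known for their part in the formation and the growth cycle of the hair follicle and in the upkeep of the basal epidermis.

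Total counts were 23122953 to 25552684 in the rIL-31 libraries and 21710679 to 23963685 in the saline libraries. Levels are given as normalized CPM, that is read counts divided by a common depth (library size with TMM factors), and levels of different genes are compared only per kilobase of transcript (RPKM). The libraries differed in how levels followed the GC content of the genes: the Spearman correlation of GC content with a gene's deviation from its overall mean was 0.383 for rIL-31 replicate 1, 0.272 for replicate 2 and -0.250 for replicate 3, and -0.238 to -0.115 for the saline libraries. The skin was measured whole, so fewer cells of a type and less RNA per cell cannot be told apart.

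After rIL-31, 12 of the 48 tested Wnt pathway genes changed, with an adjusted p (FDR, Benjamini-Hochberg) below 0.1 in edgeR's quasi-likelihood test. Sfrp1, Sfrp2, Sfrp4, Wnt2 and Wnt10a were higher in rIL-31-treated skin, and Wnt5a, Wnt10b, Fzd3, Fzd10, Lrp6, Axin2 and Dkk4 were lower. These are 25% of the tested members, whereas 8.24% of all tested genes passed, 4.51% higher and 3.73% lower. The remaining 36 did not pass. The members had been chosen with earlier results of these data known, so contrasts with all tested genes are only descriptions. Dkk4, counted among the 12, met the count filter only through the saline libraries. The median log2 fold change was 0.09 over the 48 members and 0.01 over all tested genes, so the members did not share a direction. Only Wnt2 and Dkk4 differed by more than 2-fold, the fold used in the study's methods beside the FDR, which 1.84% of all tested genes exceeded with an FDR below 0.1. The libraries of the groups did not overlap in 26 of the 48 members (54.2%), 14 higher and 12 lower, whereas 25.7% of all tested genes had groups that did not overlap. The count of 12 depended on single libraries: it was 11, 9 and 19 without rIL-31 replicates 1, 2 and 3, and 6, 4 and 5 without saline replicates 1, 2 and 3. The count of all genes, 1349 with all libraries, moved in the same fits. It was 740, 853 and 4018 without rIL-31 replicates 1, 2 and 3, and 648, 417 and 500 without saline replicates 1, 2 and 3.

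**Figure D1:**
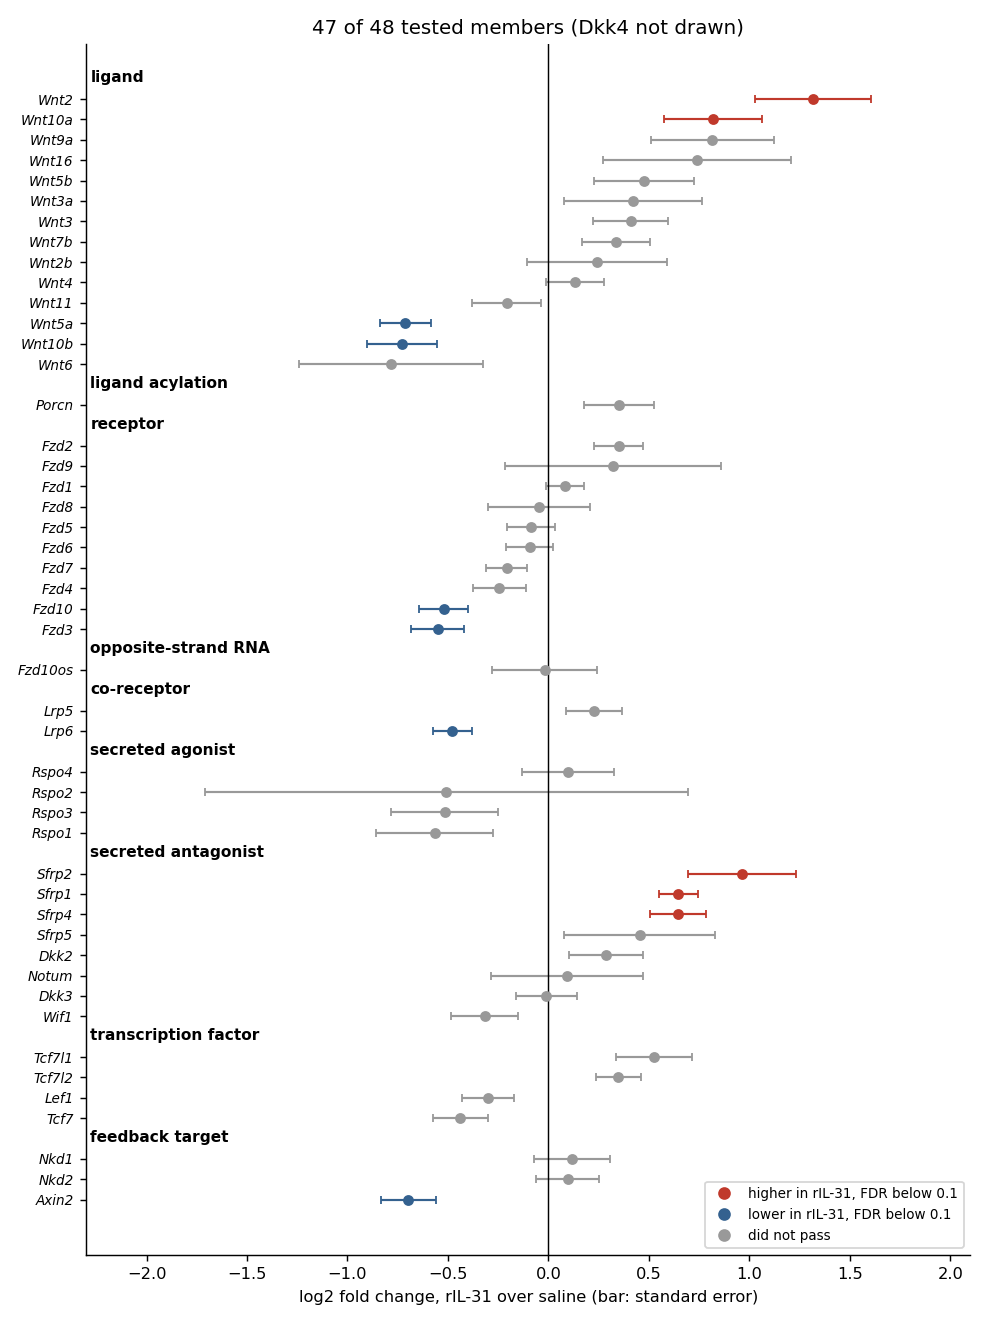
Log2 fold change of rIL-31 over saline (x axis) for 47 of the 48 tested members, ordered by role, where points are fitted values and bars are standard errors. The 5 genes past the test that were higher and 6 of the 7 that were lower are colored, and Dkk4 is left out because it had no count in any rIL-31 library.

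Promoter sequence was read for the members that changed, because Axin2 and others are regarded as targets of TCF/LEF factors and IL-31 signals through STAT factors. RefSeq windows on GRCm38.p6, from 250 bases before to 50 bases after a start, were available here for 35 of the 54 members and 5 of the 12 that changed. A TCF/LEF core (CTTTGAA or CTTTGAT, either strand) was found in the window of 3 of the 35 members, Dkk1, Wnt11 and Wnt5b (8.57%), and in 9.88% of the 27025 genes with a window. The STAT palindrome (TTCNNNGAA, either strand) was found in Wnt5b alone of the 35 (2.86%), and in 9.55% of all genes with a window. None of the 5 that changed (Axin2, Fzd10, Sfrp2, Wnt2 and Wnt10b) held either motif, which says only that these letters are not in these windows. The 250 bases before the start are shown for Axin2, which fell, and for Sfrp2, which rose, and neither stretch overlaps an exon in GENCODE M21. Each lies on the plus strand within the RefSeq span of its own gene, which begins upstream of the start used for the window. Axin2 is at chr11:108920099-108920348 and Sfrp2 at chr3:83766071-83766320, and matches would have been in capitals.
Axin2: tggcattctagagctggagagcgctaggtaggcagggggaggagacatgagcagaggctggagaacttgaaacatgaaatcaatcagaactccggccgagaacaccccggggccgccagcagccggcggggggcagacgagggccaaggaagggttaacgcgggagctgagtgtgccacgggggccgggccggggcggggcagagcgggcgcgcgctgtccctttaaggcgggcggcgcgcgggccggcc
Sfrp2: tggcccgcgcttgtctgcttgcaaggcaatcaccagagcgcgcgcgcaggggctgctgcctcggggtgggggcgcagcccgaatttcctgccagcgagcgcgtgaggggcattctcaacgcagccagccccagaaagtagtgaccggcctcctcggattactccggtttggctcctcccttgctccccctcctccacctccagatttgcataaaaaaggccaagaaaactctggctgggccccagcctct

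Among the ligands, 14 of the 19 Wnt genes were tested, of which 2 rose, 2 fell and 10 did not pass. Of all tested genes, 4.51% rose and 3.73% fell. Wnt2, a ligand of the canonical branch, had 6.86, 15.6 and 10.4 CPM in the rIL-31 libraries, against 3.78, 4.60 and 4.80 CPM in the saline libraries. Every rIL-31 library lay above every saline library, but rIL-31 replicate 2 had more than either of the others, which gave 1.32 on the log2 scale (standard error 0.29, FDR 0.0275). The call was lost without saline replicate 1 (FDR 0.114) or saline replicate 2 (FDR 0.121). Wnt10a, known for its role in skin appendages and teeth, had 22.7, 21.6 and 12.4 CPM in the rIL-31 libraries, against 12.9, 10.8 and 8.39 CPM in the saline libraries. Its groups overlapped, since rIL-31 replicate 3 lay below saline replicate 1. The fold change, 0.82 on the log2 scale (standard error 0.24, FDR 0.0866), missed the threshold without any single library other than rIL-31 replicate 3 (FDR 0.119 to 0.308).

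Wnt5a, the best-known ligand of the non-canonical branch, had 25.7, 30.2 and 32.1 CPM in rIL-31-treated skin, against 49.5, 44.8 and 50.1 CPM in saline-treated skin. All rIL-31 libraries were lower than all saline libraries, by -0.71 on the log2 scale (standard error 0.13, FDR 0.00997), and the gene passed without any single library (FDR up to 0.0622). Wnt10b, a canonical ligand of the growing hair follicle, had 7.07, 5.98 and 6.84 CPM in the rIL-31 libraries, against 11.1, 10.5 and 11.5 CPM in the saline libraries. Its groups lay apart too, at -0.73 on the log2 scale (standard error 0.17, FDR 0.0405). The call was lost without saline replicate 1, 2 or 3 (FDR 0.132 to 0.176). The related pair Wnt10a and Wnt10b thus moved in opposite directions. Per kilobase, there were 3.52, 3.96 and 2.0 Wnt10a transcripts for each Wnt10b transcript in the rIL-31 libraries, against 1.28, 1.13 and 0.803 in the saline libraries. This ratio and the other ratios given here were chosen after the values had been seen and are descriptions.

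The 2 ligands with the highest levels per kilobase did not pass the test. Wnt4 had 73.1, 56.0 and 50.9 CPM in the rIL-31 libraries, against 57.8, 55.5 and 51.0 CPM in the saline libraries (log2 fold change 0.13, standard error 0.14, FDR 0.680), and Wnt11, a ligand of the non-canonical branch, was at -0.21 (standard error 0.17, FDR 0.557). Wnt3, Wnt7b and Wnt9a had higher values in every rIL-31 library than in any saline library but did not pass, with log2 fold changes of 0.34 to 0.82 and FDRs of 0.167 to 0.311. Wnt6, the neighbor of Wnt10a on chromosome 1 at a gap of 6.70 kb, was at -0.78 (standard error 0.46, FDR 0.387) on low counts, with groups that overlapped. Porcn, the enzyme that adds the lipid to Wnt proteins, had 11.9, 10.5 and 12.5 CPM in the rIL-31 libraries, against 10.4, 8.54 and 8.49 CPM in the saline libraries. Its groups did not overlap, by a narrow margin, and it did not pass (log2 fold change 0.35, standard error 0.17, FDR 0.296).

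Summed over the 19 genes, ligand transcripts were at 56.3 ± 4.04 RPKM in rIL-31-treated skin and at 51.4 ± 1.05 RPKM in saline-treated skin (SD, n = 3 each), and the groups overlapped. The make-up of this sum differed more than the sum. Wnt5a took 7.49% of it in rIL-31-treated skin and 13.4% in saline-treated skin, and Wnt10b took 4.36% in rIL-31-treated skin and 7.91% in saline-treated skin. Wnt2 took 8.69% in rIL-31-treated skin and 3.80% in saline-treated skin, and Wnt10a took 13.5% in rIL-31-treated skin and 8.42% in saline-treated skin. These are means: the Wnt2 share ran from 5.05% to 12.2% over the rIL-31 libraries. The Wnt10a shares overlapped, at 9.68% in rIL-31 replicate 3 and 9.95% in saline replicate 1. The share of Wnt4 was nearly equal, at 25.3% in rIL-31-treated skin and 25.4% in saline-treated skin. There were 0.828, 1.60 and 1.01 Wnt2 transcripts per Wnt5a transcript in the rIL-31 libraries, against 0.238, 0.319 and 0.298 in the saline libraries. Wnt5a thus exceeded Wnt2 in 1 of the 3 rIL-31 libraries and in every saline library.

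**Figure D2:**
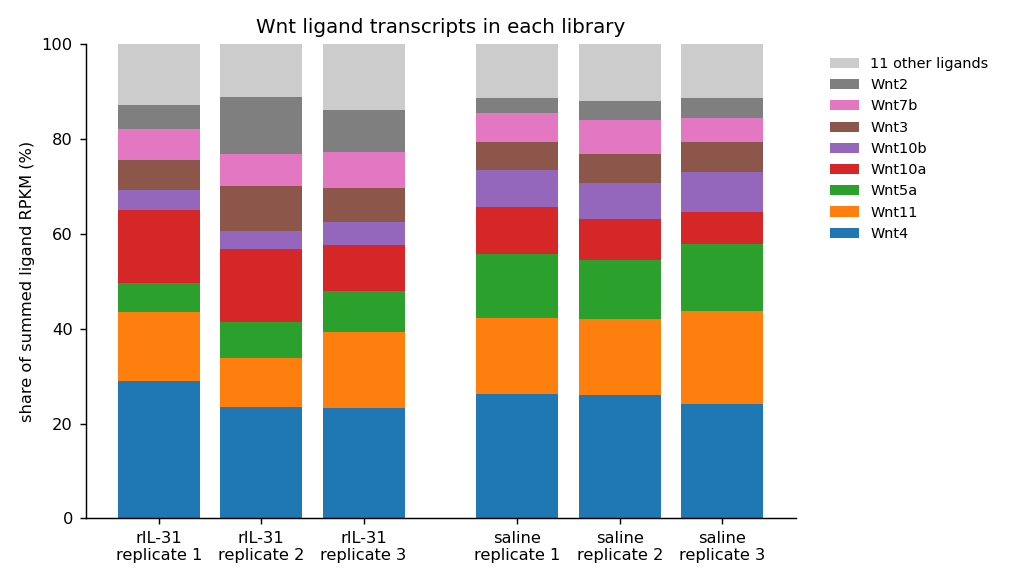
Share of the summed RPKM of the 19 Wnt ligand genes (y axis, %) in each of the 3 rIL-31 and 3 saline libraries, drawn for the 8 genes with the largest mean shares in saline-treated skin and pooled for the other 11. The Wnt5a and Wnt10b segments are smaller and the Wnt2 segments larger in every rIL-31 library than in any saline library, whereas Wnt4 stays near 25% in the means of both groups.

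Of the 10 Frizzled receptor genes, all tested, 2 fell, none rose and 8 did not pass, whereas 3.73% of all tested genes fell. Fzd10, a receptor of the canonical branch, had 30.2, 30.2 and 30.3 CPM in the rIL-31 libraries, against 38.4, 46.1 and 45.8 CPM in the saline libraries. The rIL-31 libraries were nearly equal and all lower than the saline libraries (log2 fold change -0.52, standard error 0.12, FDR 0.0352), and the call was lost without saline replicate 2 (FDR 0.217) or 3 (FDR 0.173). Fzd10os, an RNA annotated on the opposite strand next to Fzd10, which the symbol rule also took, was at -0.02 (standard error 0.26, FDR 0.980). Fzd3, a receptor known from planar cell polarity and hair orientation, had 31.7, 25.5 and 32.2 CPM in the rIL-31 libraries, against 47.4, 42.1 and 41.6 CPM in the saline libraries. Its groups were apart (log2 fold change -0.55, standard error 0.13, FDR 0.0415). The call was lost without rIL-31 replicate 2 (FDR 0.111) or without saline replicate 1 (FDR 0.165), 2 (FDR 0.161) or 3 (FDR 0.124), and with offsets for GC content (-0.40, FDR 0.116).

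The most abundant receptors per kilobase were Fzd6 and Fzd1. Fzd6, also a planar polarity receptor, had 123, 119 and 153 CPM in the rIL-31 libraries, against 139, 134 and 147 CPM in the saline libraries, and the groups overlapped (log2 fold change -0.09, standard error 0.12, FDR 0.729). Fzd1 had 119.6 to 121.7 CPM in the rIL-31 libraries and 111.8 to 116.9 CPM in the saline libraries, a gap of a few CPM that did not pass (log2 fold change 0.08, standard error 0.09, FDR 0.699). Fzd2 had higher values and Fzd4 and Fzd7 lower values in every rIL-31 library than in any saline library, with log2 fold changes of 0.35, -0.25 and -0.21 and FDRs of 0.137 to 0.344. Summed receptor transcripts were at 108 ± 6.02 RPKM in rIL-31-treated skin and at 115 ± 2.89 RPKM in saline-treated skin (SD, n = 3 each), with overlap.

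The co-receptors differed from each other. Lrp6 had 198, 184 and 200.1 CPM in the rIL-31 libraries, against 281, 271 and 259.8 CPM in the saline libraries. All rIL-31 libraries were lower (log2 fold change -0.48, standard error 0.10, FDR 0.0195), and the call was lost without saline replicate 2 alone of the single libraries (FDR 0.134). Lrp5 had 109, 134 and 92.8 CPM in the rIL-31 libraries, against 102, 95.7 and 88.9 CPM in the saline libraries, and its groups overlapped (log2 fold change 0.23, standard error 0.14, FDR 0.409). There were 0.579, 0.769 and 0.489 Lrp5 transcripts per Lrp6 transcript in the rIL-31 libraries, against 0.384, 0.372 and 0.360 in the saline libraries. Their sum was 33.3 ± 1.47 RPKM in rIL-31-treated skin and 39.6 ± 1.90 RPKM in saline-treated skin (SD, n = 3 each), and every rIL-31 library was lower.

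None of the 4 R-spondin genes passed. Rspo4, known in humans for its role in nails, had 7.96, 5.22 and 6.81 CPM in the rIL-31 libraries, against 6.72, 6.55 and 5.41 CPM in the saline libraries (log2 fold change 0.10, standard error 0.23, FDR 0.865). Rspo1 had 4.95, 2.38 and 3.69 CPM in the rIL-31 libraries, against 5.42, 5.47 and 5.46 CPM in the saline libraries. Its values were lower in every rIL-31 library but spread widely there (log2 fold change -0.57, standard error 0.29, FDR 0.317), and Rspo3 was at -0.52 (standard error 0.26, FDR 0.317). Rspo2 had 0, 0 and 25 counts in rIL-31 replicates 1, 2 and 3, against 7, 13 and 12 counts in saline replicates 1, 2 and 3, and it passed only in the fit without rIL-31 replicate 3 (FDR 0.0380).

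Among the roles, the secreted antagonists held the largest number of rises, on few genes. Of 10 genes, 9 were tested, of which 3 rose, 1 fell and 5 did not pass. Over all tested genes, 4.51% rose and 3.73% fell. The 3 antagonists that rose were all secreted Frizzled-related proteins, which bind Wnt or its receptors. Sfrp1 had 187, 186 and 198 CPM in rIL-31-treated skin, against 127, 119 and 119 CPM in saline-treated skin. The groups were far apart relative to their spread, at a log2 fold change of 0.65 (with a standard error 0.10, FDR 0.00390), and the gene passed without any single library (FDR up to 0.0530). Sfrp4 had 27.6, 25.2 and 28 CPM in the rIL-31 libraries, against 15.3, 19.1 and 17.4 CPM in the saline libraries. It was also higher in every rIL-31 library (log2 fold change 0.64, standard error 0.14, FDR 0.0243), and missed the threshold without saline replicate 1 (FDR 0.119) or 3 (FDR 0.112). Sfrp2 had 31.7, 64.0 and 34.9 CPM in the rIL-31 libraries, against 28.2, 22.0 and 16.7 CPM in the saline libraries. Its mean in rIL-31-treated skin was carried in good part by rIL-31 replicate 2 (log2 fold change 0.96, standard error 0.27, FDR 0.0699), without which the value was 0.57 (FDR 0.188), and the call was also lost without saline replicate 2 (FDR 0.242) or 3 (FDR 0.257). Sfrp5 had few reads and did not pass, but its values too were higher in every rIL-31 library (log2 fold change 0.45, standard error 0.38, FDR 0.564).

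Sfrp transcripts summed to 66.7, 81.6 and 70.8 RPKM in the rIL-31 libraries, against 47.7, 43.6 and 40.7 RPKM in the saline libraries. Sfrp1 made up 60.1% of this sum in rIL-31-treated skin and 63.4% in saline-treated skin. There were 11.7, 9.86 and 9.89 Sfrp1 transcripts per Wnt5a transcript in the rIL-31 libraries, against 4.12, 4.26 and 3.80 in the saline libraries, a ratio that combines the member with the smallest FDR among those that rose and that among those that fell. All 10 genes classed as antagonists together were at 100.2 ± 6.99 RPKM in rIL-31-treated skin and at 73.1 ± 1.28 RPKM in saline-treated skin (SD, n = 3 each), without overlap. Within this sum, the means of the Sfrp genes were 73.0 RPKM in rIL-31-treated and 44.0 RPKM in saline-treated skin. Those of the Dkk genes were 17.1 and 16.9 RPKM, with overlap.

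Dkk4, a secreted inhibitor that binds the Lrp co-receptors and marks early hair placodes in the embryo, went the other way on very few reads. It had no count in any of the 3 rIL-31 libraries, against 12, 11 and 12 counts in the saline libraries (FDR 0.0328). Against a floor of 3 counts over the rIL-31 group, it was at least 12.5-fold lower in rIL-31-treated skin. Dkk4 passed the filter on low counts only through the saline libraries, where it was high. It was not tested when 10 counts were asked of every library. Its place among the 12 thus rests on not asking for counts in every library, and with no filter it was also called. The call was lost without saline replicate 1, 2 or 3 (FDR 0.122 to 0.155), and DESeq2 gave no adjusted p. The other Dkk genes did not pass: Dkk3, the most abundant, was at -0.01 (standard error 0.15, FDR 0.980) and Dkk2 at 0.29 (standard error 0.18, FDR 0.435). Wif1, which binds Wnt proteins directly, had 18.0, 17.5 and 25.3 CPM in the rIL-31 libraries, against 22.9, 25.9 and 27.1 CPM in the saline libraries (log2 fold change -0.32, standard error 0.17, FDR 0.327). Notum, the enzyme that removes the lipid from Wnt proteins, was at 0.09 (standard error 0.38, FDR 0.924).

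**Figure D3:**
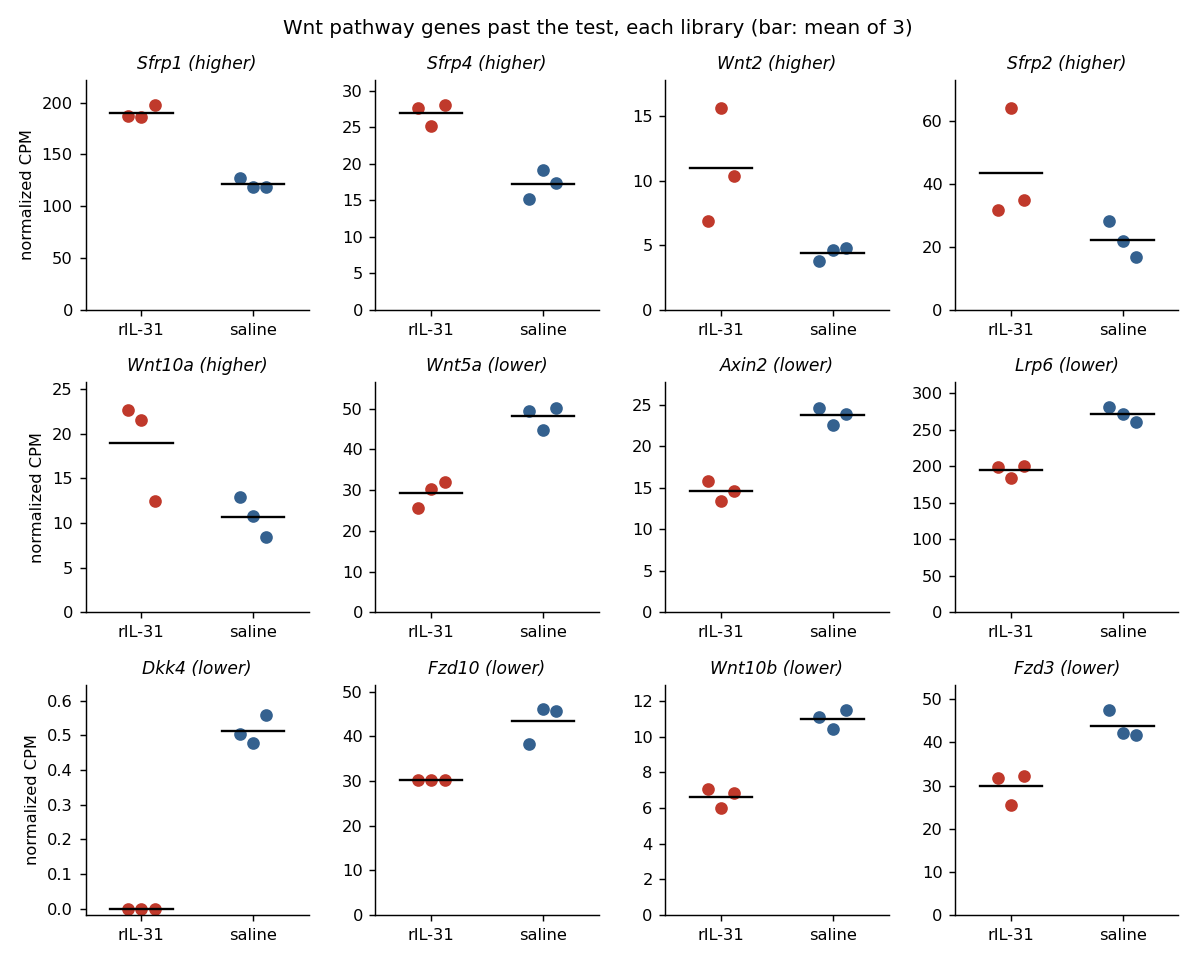
Normalized CPM (y axis, from 0) of the 12 members past the test in each rIL-31 library (left of each panel) and each saline library (right), where bars are means of 3 libraries. The groups overlap for Wnt10a alone, Dkk4 is at 0 in all rIL-31 libraries, and rIL-31 replicate 2, at 15.6 CPM for Wnt2 and 64.0 CPM for Sfrp2, stands above the other libraries.

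None of the 4 transcription factors passed at an FDR of 0.1. All 4 had groups that did not overlap, 2 in each direction, as did 25.7% of all tested genes. Tcf7l2, a Wnt effector expressed in many tissues, had 52.2, 52.0 and 52.7 CPM in the rIL-31 libraries, against 43.8, 41.2 and 38.1 CPM in the saline libraries. Its higher values just missed the threshold (log2 fold change 0.35, standard error 0.11, FDR 0.108). Tcf7l1, a factor that mainly represses and is known from bulge stem cells, had 19.6, 13.4 and 15.1 CPM in the rIL-31 libraries, against 12.9, 9.67 and 10.9 CPM in the saline libraries (log2 fold change 0.53, standard error 0.19, FDR 0.151). Tcf7 had lower values, 20.4, 19.7 and 17.5 CPM in the rIL-31 libraries, against 29.0, 24.0 and 24.9 CPM in the saline libraries (log2 fold change -0.44, standard error 0.14, FDR 0.104). Lef1, the factor of hair matrix and precortex cells, had 40.8, 45.4 and 38.6 CPM in the rIL-31 libraries, against 59.2, 47.2 and 47.3 CPM in the saline libraries (log2 fold change -0.30, standard error 0.13, FDR 0.238). The sum of the 4 was 38.5 ± 1.59 RPKM in rIL-31-treated skin and 39.2 ± 4.09 RPKM in saline-treated skin (SD, n = 3 each). Per kilobase, Tcf7l2 stood at 1.70, 1.76 and 2.0 times Tcf7 in the rIL-31 libraries, against 1.0, 1.14 and 1.02 times in the saline libraries. Tcf7 and Tcf7l2 each passed under 7 of the 16 alternative fits, the replicate block and the GC content offsets among them, and without rIL-31 replicate 3 their FDRs were 0.0879 and 0.0546 and that of Tcf7l1 was 0.0773. Reads of Tcf7 and Tcf7l1 are uncertain in part, since their annotated spans share 332 bases with the abundant Skp1 and 8430 bases with Gm15401 (1751 counts in all, against 1935 for Tcf7l1), and the use of strand in the counting is not given.

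Of the 3 feedback genes, which Wnt signaling induces and which in turn restrain it, 1 fell, beside 3.73% of all tested genes. Axin2, a scaffold of the complex that destroys β-catenin and the most used readout of canonical signaling, had 15.8, 13.5 and 14.6 CPM in rIL-31-treated skin, against 24.6, 22.6 and 23.9 CPM in saline-treated skin. The groups were well apart (log2 fold change -0.70, standard error 0.14, FDR 0.0155), and the gene passed without any single library (FDR up to 0.0815). Nkd1 and Nkd2, which bind Dishevelled, did not pass. Nkd2 had 34.7, 41.3 and 26.8 CPM in the rIL-31 libraries, against 32.5, 31.1 and 32.5 CPM in the saline libraries (log2 fold change 0.10, standard error 0.16, FDR 0.796). Nkd1 was slightly above in every rIL-31 library, at 6.92 ± 0.133 CPM in rIL-31-treated skin and 6.38 ± 0.123 CPM in saline-treated skin (SD, n = 3 each), and it did not pass (0.12 on the log2 scale, FDR 0.794).

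Other genes of the pathway were read from 6 lists, written from general knowledge but with earlier results of these data known. Of the 84 tested genes in these lists, 4 rose and 5 fell (10.7%, beside 8.24% of all tested genes). Their median log2 fold change was 0.01. Of 15 tested canonical targets outside the members, 3 fell and 2 rose. The homeobox genes Msx1 and Msx2, expressed in the hair follicle, were at -1.16 (standard error 0.22, FDR 0.0126) and -0.64 (standard error 0.16, FDR 0.0420), and Ccn4, a secreted matricellular protein, was at -0.72 (standard error 0.16, FDR 0.0255). The growth regulator Myc, at 0.43 (standard error 0.12, FDR 0.0739), and the activin inhibitor Fst, at 0.62 (standard error 0.18, FDR 0.0841), rose. Of 20 genes of the cytoplasmic signal and destruction complex, 2 fell. Tnks (tankyrase), the enzyme that marks Axin for degradation, had 34.2, 28.3 and 32.6 CPM in the rIL-31 libraries, against 72.9, 71.5 and 63.1 CPM in the saline libraries, and the groups were far apart (log2 fold change -1.13, standard error 0.12, FDR 0.000527). Apc, a core part of the same complex, was at -0.54 (standard error 0.10, FDR 0.0159). The co-repressor Tle2 was the single riser of 12 nuclear co-factors (log2 fold change 1.23, standard error 0.27, FDR 0.0293), and Draxin, a secreted guidance protein that can inhibit Wnt, the single riser of 9 secretion and inhibitor genes (2.01, standard error 0.52, FDR 0.0519). None of the 16 receptor partners or the 12 planar polarity genes passed. The count of 9 was 5 without rIL-31 replicate 1, 26 without rIL-31 replicate 3, 4 without saline replicate 2 and 3 without saline replicate 3. The count of all genes in these fits was 740, 4018, 417 and 500, against 1349 with all libraries.

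Markers of skin cell types were read in the same fit, since several of the 12 changed members are known from the hair follicle or the epidermis. Over all tested genes, 8.24% passed. Among 7 basal keratinocyte markers, 6 rose (Lamb3, Col17a1 and Krt5 with the smallest p) and Trp63 did not pass, at 320.1, 365 and 396 CPM in the rIL-31 libraries, against 408, 421 and 399 CPM in the saline libraries, lower in every rIL-31 library. The summed level of the 7 was 6947 to 10213 CPM in the rIL-31 libraries and 4649 to 5206 CPM in the saline libraries. Of 7 bulge markers, 2 rose (Nfatc1 and Cd34), with sums of 2713 to 2820 CPM in the rIL-31 libraries and 2188 to 2238 CPM in the saline libraries. The largest parts of these sums were Postn and Krt15, which did not pass (FDR 0.365 and 0.114). Postn had means of 1388 CPM in rIL-31-treated and 1192 CPM in saline-treated skin, and Krt15 of 725 and 531 CPM. Dermal papilla markers, of which 8 were tested, had sums of 46.2 to 55.6 CPM in the rIL-31 libraries and 58.1 to 68.5 CPM in the saline libraries. Corin and Hhip were lower, Fgf7 was higher, 5 did not pass and Sox2 was too low to be tested. Corin, the largest part of the saline sum, had means of 7.58 CPM in rIL-31-treated and 19.2 CPM in saline-treated skin. The median log2 fold change of the 8 was 0.03. None of 12 hair matrix and shaft markers passed, and their sums overlapped, at 15577 to 20309 CPM in the rIL-31 libraries and 18730 to 21280 CPM in the saline libraries. Melanocyte markers fell in 9 of 12 genes, with sums of 339 to 381 CPM in the rIL-31 libraries and 722 to 747 CPM in the saline libraries. Fibroblast markers, at sums of 13956 to 15839 CPM in the rIL-31 libraries and 13728 to 13960 CPM in the saline libraries, held 2 of 10 that rose (Pi16 and Fbln1). Of the other lists, 2 of 6 Schwann cell markers rose, 1 of 7 T cell, 1 of 8 endothelial and 2 of 9 skeletal muscle markers fell, and none of the macrophage, adipocyte or smooth muscle markers passed. The part of these cell types in the changes of the Wnt pathway genes was not tested.

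Direction did not turn for any of the 12 changed members in 16 alternative fits (14 for Dkk4). Axin2, Sfrp1 and Wnt5a passed in all 16, and 10 of the 12 passed in every fit able to test them that kept all 6 libraries, the exceptions being Fzd3 with GC content offsets and Wnt10a with limma-voom. For Dkk4, among the 10, only 8 of the 10 fits with all libraries gave a test. DESeq2 and the filter of 10 counts in every library gave none. The losses without a single library are given above with each gene.

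**Figure D4:**
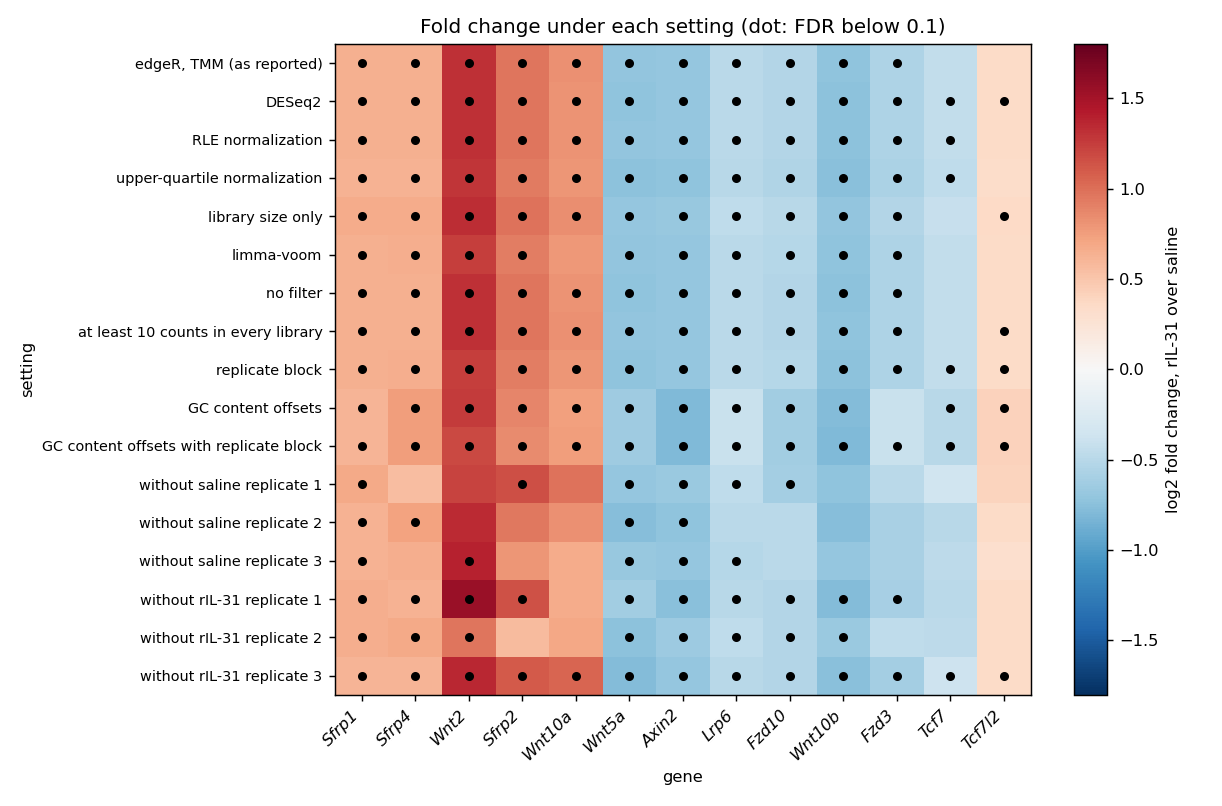
Fitted log2 fold change (color) of 11 members past the test, without Dkk4, and of Tcf7 and Tcf7l2 (x axis) under the reported setting and 16 alternatives (y axis), where a dot marks an FDR below 0.1. Sfrp1, Wnt5a and Axin2 carry a dot in every line, and colors keep their sign in every column.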

How the data were processed

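RNA-Seq was analysed for all 6 libraries of back skin, 3 rIL-31 and 3 saline. The authors deposited a single table of raw read counts, in whole numbers, keyed by Entrez number. The submitters' processing notes name bcl2fastq, CASAVA 1.8, TopHat, DESeq and the build mm10, without roles, and the methods name DESeq for the test. The counting program, the gene annotation, the use of strand and the treatment of reads from similar genes were not given in the sources used here. Values of overlapping genes and close paralogs are therefore uncertain. None of the 12 changed members overlaps another gene of the table.

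RefSeq's annotation (GRCm38.p6) supplied symbols and positions, and left 85 of the 24061 Entrez numbers without a symbol. Of 19733 genes with at least 1 count, edgeR's filterByExpr (minimum count 10) left 16371. Groups were compared in edgeR 4.0.16 (R 4.3.3) by the quasi-likelihood test, with TMM scaling and no covariate, fitted on the whole table with Benjamini-Hochberg adjustment, and genes passed at an FDR below 0.1. The fitting code was checked on simulated counts with known changes. No pair of replicates within a group differed by as little as sampling noise (chi-square per degree of freedom 8.95 or more). RPKM used the longest GENCODE M21 transcript and the TMM-scaled library size, and depth limits the precision of low genes such as Dkk4. GC content, known for 94.2% of tested genes, was corrected by an offset per library on top of depth and TMM.

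The alternatives were DESeq2 1.42.0, limma-voom (limma 3.58.1), RLE, upper-quartile and library-size scaling, no filter, a filter of 10 counts or more in all libraries, the replicate block, GC content offsets with and without the block, and each library left out in turn. Genes named with values were the members with an FDR below 0.1, those with the 2 highest levels of each role, those whose groups did not overlap, and up to 4 changed genes per related list or 3 per marker list. Beyond this rule, Dkk2, Dkk3, Fst, Fzd10os, Lrp5, Notum, Rspo2, Rspo3, Trp63, Wif1 and Wnt6 were chosen after their values had been seen. The members and lists were chosen with earlier results of these data known. Krt85 and Trac of the marker lists were not matched in the table.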

Additional observations from a re-analysis of the deposited data

How the results depend on the processing

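At the thresholds of the study's methods (p below 0.05, FDR below 0.1 and more than 2-fold), 2 members passed in the edgeR fit, 1 higher and 1 lower, and 302 of all genes. The paper, which used DESeq, reported a larger number of genes at these thresholds. At an FDR below 0.05, 10 members passed, 3 higher and 7 lower. The share of all tested genes below 0.05 was not taken, so this count has no background beside it. Without a single library, the count of members ranged from 4 to 19 (2 to 9 higher, 2 to 10 lower), that of all genes from 417 to 4018, against 1349 with all libraries, and that of the related lists from 3 to 26, against 9. The count of members was lowest without saline replicate 2 and highest without rIL-31 replicate 3. DESeq2 called 14 genes of the related lists and 1829 of all genes. Fzd1, at 0.08 and not past the test, changed sign with GC content offsets, without and with the replicate block (-0.021 and -0.022). Signs also changed for other members near 0 that did not pass. With GC content offsets, Rspo4 was at -0.0029 without and -0.019 with the block, and Nkd2 at -0.0057 with the block. With library size alone, Dkk3 was at 0.0076 and Fzd10os at 0.0018. Without a single library, the log2 fold changes ranged from -0.037 to 0.24 for Wnt4, -0.051 to 0.23 for Rspo4, -0.073 to 0.25 for Nkd2, -0.14 to 0.42 for Notum, -0.19 to 0.10 for Dkk3, -0.27 to 0.14 for Fzd10os and -0.33 to 0.079 for Fzd8, and from -6.47 to 0.060 for Rspo2, whose lowest value is a fit with no rIL-31 counts left and no bound. For these results, the cause was not tested.

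The replicate numbers are shared between the groups, and so few libraries cannot settle whether they pair the libraries. Deviations from the group means correlated at 0.08, -0.02 and 0.22 between same-numbered libraries, with 2 of the 3 below 0.1. Of the rIL-31 libraries, replicates 1 and 3 correlated best with their own number, and replicate 2 with saline replicate 1 (0.15). With the replicate block, 15 members passed (7 higher, 8 lower), 2273 of all genes and 16 of the related lists, and with GC content offsets and the block 15 members, 2139 genes and 17 of the related lists. No changed member lost its call under the block, and Tcf7, Tcf7l1 and Tcf7l2 gained one. The other scalings, filters and models gave 11 to 13 members. At these depths, genes with few counts, such as Dkk4, Rspo2 and Sfrp5, carry wide errors, and the 6 untested members give no statement about a change.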
